A study of Homo sapiens with 10 samples.

Results

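AP-1 is a pair of proteins, one from the JUN family (JUN, JUNB, JUND) and one from the JUN or FOS family (FOS, FOSB, FOSL1, FOSL2), held together by leucine zippers and bound to DNA. Several of its members belong to the immediate early genes. Cells switch these on from factors that are already present when growth factors or stress act through the MAP kinases. EGR1 is a zinc finger factor of the same early wave, DUSP1 is a phosphatase that removes the activating phosphates from MAP kinases, and IER3 is a small stress-inducible protein. The 10 genes were taken by symbol, and all 10 were found among the 58395 genes counted. The rule that lists them holds no measured value, but they were chosen with earlier results of these data known. Counts and medians of the members beside those of all genes are therefore descriptions.

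RNA was sequenced from HeyA8, an established human ovarian cancer line, after transfection with 10 nM of 1 of 3 small interfering RNAs (siRNAs) that differ only in the seed, positions 2 to 7 of the guide strand. siNT1 (labelled siNT1 S2'OM) is the non-targeting control, siGGGGGC (labelled siMxy) carries a G-rich seed, and siGGCAGU (labelled si34a) carries the seed of the microRNA miR-34a-5p. The 5 groups were siNT1 at 24 h, siGGGGGC at 24 h, siNT1 at 48 h, siGGCAGU at 48 h and siGGGGGC at 48 h, with 2 libraries each, made from duplicate wells of 1 line. All wells received transfection reagent and a duplex with a modified passenger strand, untransfected cells were not analysed here, and wells kept to 48 h had their medium changed at 24 h. The comparisons ask how each seed changed these genes against siNT1, and whether the siGGGGGC change differed between the times. siGGCAGU was analysed at 48 h only, and the siRNA comparisons at 48 h share their siNT1 libraries.

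The libraries held 19781445 to 42428986 counts, of which 2 small structural RNA genes, RN7SL2 and SNORD3A, took 19.83% to 31.96%. The first siNT1 library at 24 h stood apart in its breadth, with a count at 33365 genes against 25238 to 28703 in the other 9. The epithelial markers KRT7, KRT8, KRT18 and PAX8 had at least 84 counts in every library. WT1 had 31 to 191, EPCAM had 8 to 51 and MUC16 had 0 to 26. The 4 blood cell markers had at most 5 counts and the 3 endothelial markers at most 28. Of 6 epithelial markers tested, 5 fell by more than 2-fold under siGGGGGC at 48 h. Of all genes tested, 3636 passed beyond 2-fold there in either direction, 1768 of them upwards. Under siGGCAGU 2 of these markers rose and 2 fell, where 27.8% of all genes rose and 24.9% fell. The part of these markers in the results was not tested. Levels are given as normalised counts, that is, counts scaled by the effective size of each library. A gene is said to have risen or fallen where edgeR's quasi-likelihood test gave a Benjamini-Hochberg adjusted p below 0.05 over the 16905 genes tested. With 2 libraries in a group, these p-values measure the spread between wells of 1 line, which may be technical. In RNA from whole wells, fewer cells expressing a gene and less RNA per cell cannot be told apart.

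The 3′ untranslated regions (UTRs) of the members were searched for the 6 bases that pair with each seed. For siGGGGGC these letters are GCCCCC. For the seed of miR-34a-5p, carried by siGGCAGU, they read ACTGCC, and the seed of the non-targeting control siNT1 pairs with the letters CGACTA. The match of the siGGGGGC seed, GCCCCC, occurred 4 times in FOSB, 3 times in FOSL2, 2 times in JUNB and 1 time each in FOSL1, JUN and JUND, and was not in the UTRs of FOS, EGR1, DUSP1 or IER3. ACTGCC occurred 2 times in FOSL1 and 1 time each in FOS, FOSB and FOSL2, and CGACTA was in none of the 10. Among 19125 genes, 30.21% held GCCCCC, 32.7% held ACTGCC and 2.75% held CGACTA. The sites below are those of FOSL1, whose level moved in opposite directions under the 2 targeting siRNAs, and of JUND, the member with the largest fall under siGGGGGC at 24 h. They are read from hg38, with the 6 bases in capitals.
FOSL1, ACTGCC at chr11:65892551-65892556 (minus strand): cccttccagatcACTGCCacactctccatc
FOSL1, ACTGCC at chr11:65892450-65892455 (minus strand): ctcaccagccccACTGCCagcagcagcagg
FOSL1, GCCCCC at chr11:65892409-65892414 (minus strand): ggccattctgccGCCCCCtcctgaaccgca
JUND, GCCCCC at chr19:18280292-18280297 (minus strand): agagagggcgcgGCCCCCggggattccccc
Both ACTGCC sites of FOSL1 are followed by an A, and neither of the GCCCCC sites shown is. This contrast holds for the sites shown only. Among the sites not shown, the GCCCCC site of JUN and a GCCCCC site of FOSB are followed by an A. So is the ACTGCC site of FOSB, but not those of FOS and FOSL2. The guide base after the seed is an A in both targeting siRNAs, so a T before the 6 bases extends the match. A T stood there at the ACTGCC site of FOSL2 and at some GCCCCC sites of FOSB and FOSL2. None of the sites shown has it. A match describes the letters of the annotated UTR, and binding at these sites was not measured.

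Promoter windows of 300 bases, 250 before to 50 after the RefSeq start in GRCh38.p14, were given for 8 of the 10 members; FOSL1 and IER3 had no entry. They were searched for the CArG box, the element of serum response factor, for TGACGTCA, the cAMP response element, and for the AP-1 element, TGACTCA or TGAGTCA. Each of these sets is its own reverse complement, so both strands were covered, and none of the 3 can match at the same bases as another. They were found in 1.29%, 1.85% and 4.95% of 35116 promoter windows. EGR1 held 2 CArG boxes, DUSP1 and JUND held 1 TGACGTCA each, and FOSL2 held 1 TGACTCA. The windows of EGR1, the member with the largest rise, and of DUSP1, which rose under both siRNAs, are shown with the element in capitals. Those of JUND and FOSL2, which fell under siGGGGGC at 48 h, hold an element too and are not shown. JUNB also rose under both siRNAs, and its window held none of the 3 elements.
EGR1, chr5:138465364-138465393 (plus strand): gccggtcctgCCATATTAGGgcttcctgct
EGR1, chr5:138465386-138465415 (plus strand): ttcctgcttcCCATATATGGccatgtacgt
DUSP1, chr5:172771302-172771331 (minus strand): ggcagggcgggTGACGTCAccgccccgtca
No protein binding was measured here, and an element that was not found says only that its letters are not in the window.

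At 48 h, siGGGGGC raised 7 of the 10 genes and lowered 3 against siNT1, where 55.3% of all genes tested passed (27.8% higher and 27.5% lower). EGR1, FOS, FOSB, IER3, JUNB and FOSL1 each rose by more than 2-fold, a size reached upwards by 10.5% of all genes, and DUSP1 rose by less. FOSL2, JUND and JUN fell. EGR1 passed the filter on low counts only through the siGGGGGC libraries at 48 h, so it had to differ there and supports none of the counts and medians that compare those libraries. Of the other 9 members, 6 rose and 3 fell. Their median change was 1.46 on the log2 scale, against -0.01 for all genes, and it was 1.94 with EGR1 included.

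At 24 h the siGGGGGC changes were smaller: 6 members rose and JUND fell, with 18.9% of all genes passing (10.6% higher and 8.32% lower). The median of the 10 was 0.65 on the log2 scale, against 0.00 for all genes. Under siGGCAGU at 48 h, 3 members rose (IER3, JUNB and DUSP1) and 2 fell (FOSL1 and FOSL2), with 52.7% of all genes passing (27.8% higher and 24.9% lower). The share of members that passed, 5 of 10, was close to the share of all genes. Their median was 0.15 on the log2 scale against 0.02 for all genes. FOS and FOSB thus rose under siGGGGGC and did not pass under siGGCAGU at the same time, and the direct comparison of the 2 siRNAs is given for each below.

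**Figure D1:**
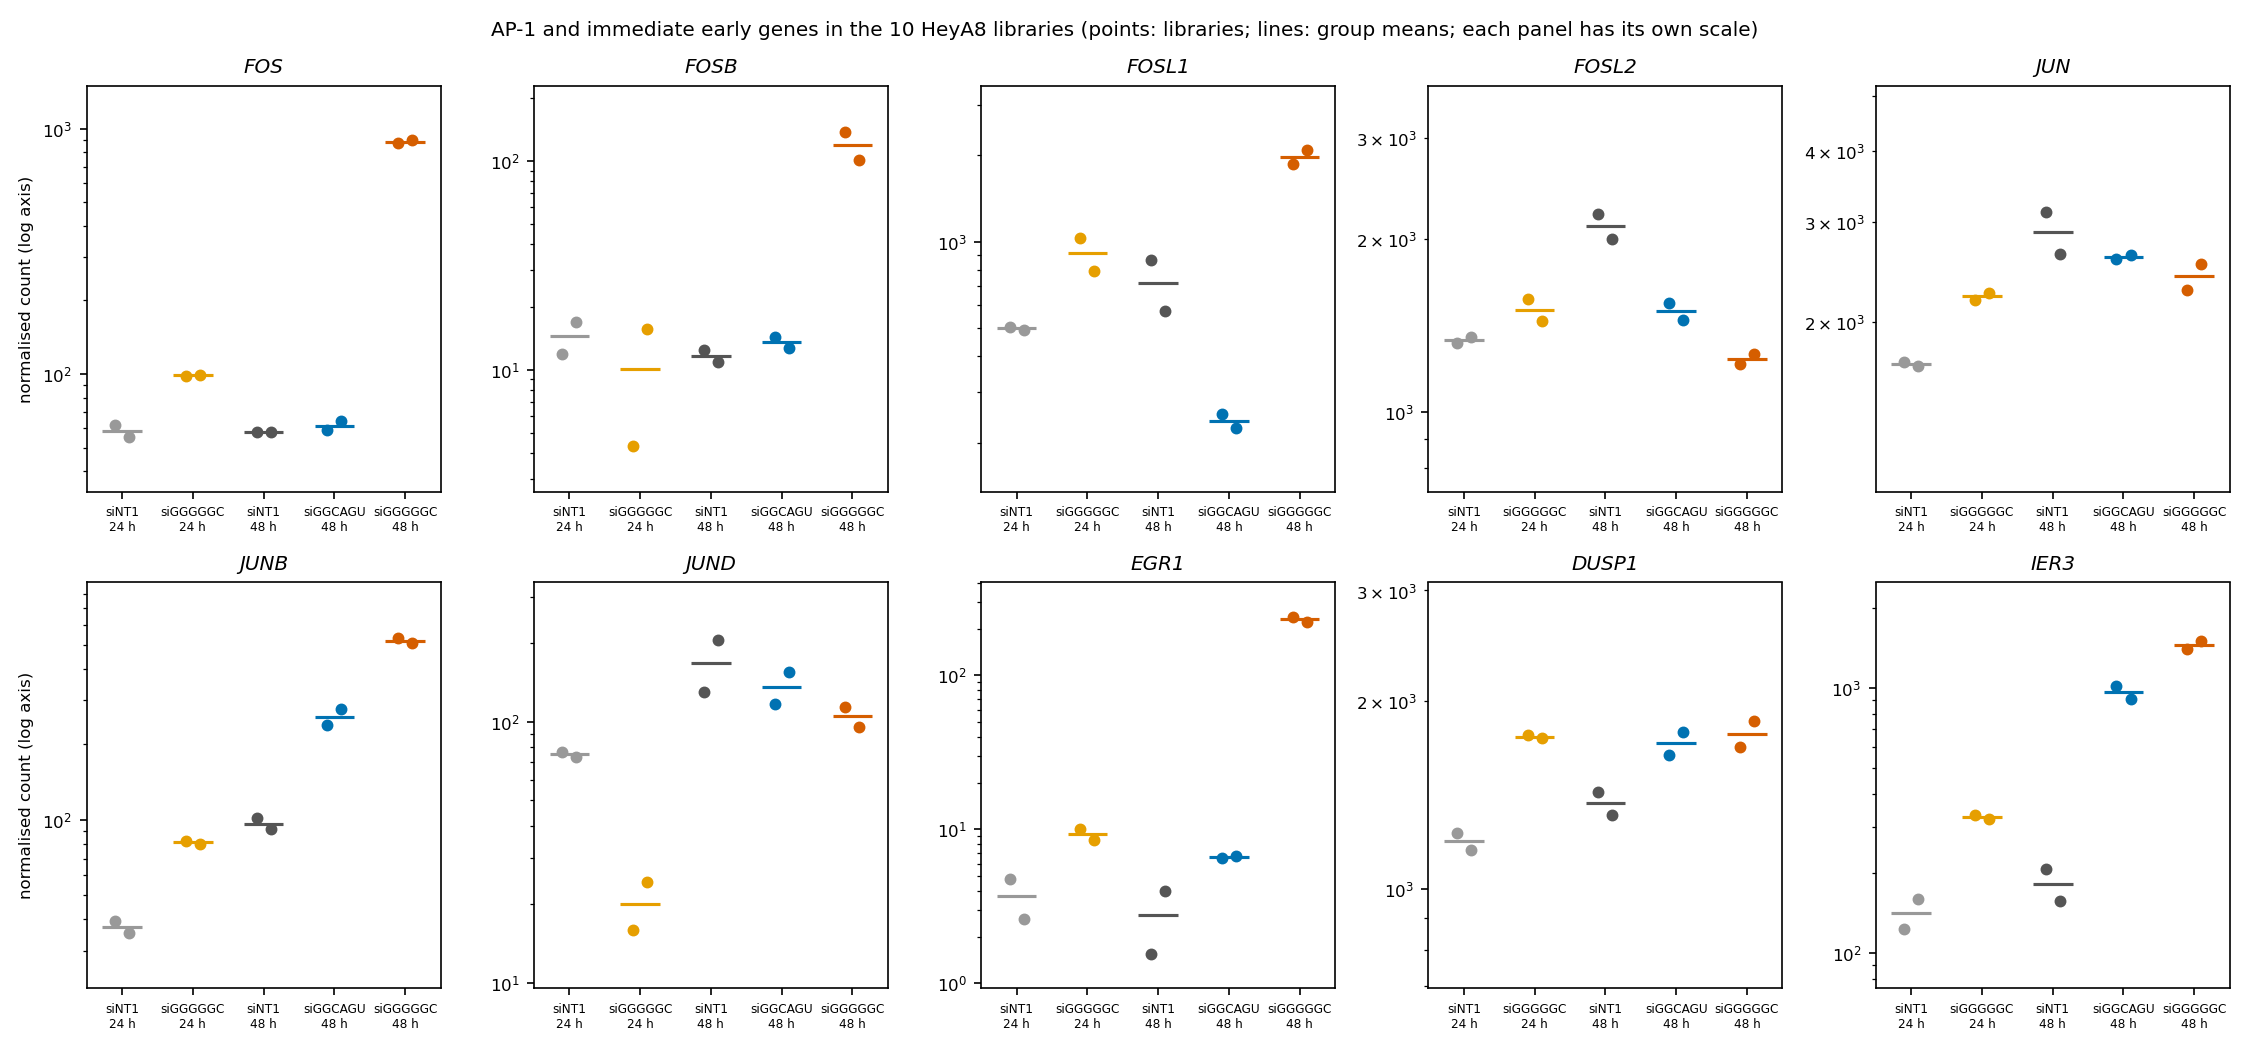
Normalised counts (log axis, 1 panel and 1 scale per gene) of the 10 genes in the 10 HeyA8 libraries; points are libraries and lines are group means of 2. FOS, FOSB and EGR1 stand high in the siGGGGGC libraries at 48 h alone, with means of 883, 119 and 231, whereas JUND is lowest in the siGGGGGC libraries at 24 h, with a mean of 20.1.

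FOS (chr14:75278826-75282230 in hg38, plus strand) encodes the founding FOS protein, whose RNA is usually scarce in unstimulated cells and decays fast. It had 62.1 and 54.99 normalised counts under siNT1 and 98.2 and 98.7 under siGGGGGC at 24 h. At 48 h it had 58.1 and 57.9 under siNT1, 58.9 and 64.0 under siGGCAGU, and 872 and 895 under siGGGGGC. The siGGGGGC libraries lay above the siNT1 libraries at both times, and the 2 groups did not overlap. The log2 fold change was 0.75 ± 0.17 (SE) at 24 h (edgeR adjusted p = 0.00566) and 3.93 ± 0.12 at 48 h (adjusted p = 5.31e-12), a 15.2-fold rise. The 24 h call was lost without the second siNT1 library (0.68, adjusted p = 0.0559). The effect at 48 h exceeded that at 24 h by 3.18 ± 0.21 on the log2 scale (adjusted p = 1.25e-07). siGGCAGU gave a difference of 0.09 with a 95% confidence interval of -0.23 to 0.42, and FOS was 14.2-fold higher under siGGGGGC than under siGGCAGU (adjusted p = 8.93e-12).

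FOSB (chr19:45467995-45475179, plus strand), the closest relative of FOS, was scarce. It had 11.9 and 17.0 normalised counts under siNT1 and 4.33 and 15.7 under siGGGGGC at 24 h. By 48 h it stood at 12.4 and 10.9 under siNT1, 14.4 and 12.6 under siGGCAGU, and 137 and 101 under siGGGGGC. The siGGGGGC libraries at 48 h lay far above all others, and the 24 h groups overlapped. Its 221 counts over the siGGGGGC libraries against 35 over the siNT1 libraries at 48 h gave a ratio of 10.3 after scaling, with a 95% interval of 7.19 to 15.2 for counting error only. The edgeR log2 fold change was 3.35 ± 0.30 (adjusted p = 2.24e-07). At 24 h the difference was -0.51 with an interval of -1.65 to 0.63, and the effects at the 2 times differed by 3.86 ± 0.62 (adjusted p = 3.04e-04). This difference was 3.21 without the first and 5.04 without the second siGGGGGC library at 24 h (adjusted p = 0.00140 and 2.15e-04). FOSB has 4 GCCCCC matches in its UTR, and their part in these changes was not tested. The FOSB level under siGGGGGC at 48 h exceeded that under siGGCAGU by 3.15 ± 0.32 (adjusted p = 6.56e-07).

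FOSL1 (chr11:65892049-65900573, minus strand) encodes FRA-1, the FOS protein that lacks the transactivation domain of FOS and is common in carcinoma cells. It had 506 and 494 normalised counts under siNT1 and 1029 and 791 under siGGGGGC at 24 h. The levels at 48 h were 867 and 575 under siNT1, 251 and 225 under siGGCAGU, and 1857 and 2089 under siGGGGGC. The 3 groups at 48 h did not overlap, with siGGCAGU lowest and siGGGGGC highest. FOSL1 rose by 0.86 ± 0.17 on the log2 scale under siGGGGGC at 24 h (adjusted p = 0.00205) and by 1.46 ± 0.16 at 48 h (adjusted p = 1.29e-06). Under siGGCAGU it changed by -1.60 on the log2 scale (SE 0.17, adjusted p = 1.41e-06). The direct difference between the 2 siRNAs was 3.06 ± 0.17, or 8.34-fold (adjusted p = 1.30e-09). FOSL1 thus moved in opposite directions under the 2 siRNAs. Its UTR holds 1 GCCCCC and 2 ACTGCC matches, and their part in these changes was not tested. The time difference of the siGGGGGC effect, 0.59 ± 0.23, did not pass (adjusted p = 0.0622), but did pass with a replicate block (0.62, adjusted p = 0.0394). It also passed without the first siGGGGGC library at 24 h (0.78, adjusted p = 0.0367), without the first siNT1 library at 48 h (0.90, adjusted p = 0.00206) and without either siGGCAGU library (0.58 each, adjusted p = 0.0460 and 0.0441).

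FOSL2 (chr2:28392448-28417317, plus strand) encodes FRA-2, the other FOS protein without that domain. It had 1321 and 1349.9 normalised counts under siNT1 and 1574 and 1443 under siGGGGGC at 24 h. The libraries of 48 h had 2214 and 1999 under siNT1, 1551 and 1446 under siGGCAGU, and 1213 and 1262 under siGGGGGC. The order at 48 h was siNT1, siGGCAGU, siGGGGGC, with no overlap between groups. FOSL2 fell by 0.77 on the log2 scale under siGGGGGC (SE 0.09, adjusted p = 3.00e-06) and by 0.49 under siGGCAGU (SE 0.09, adjusted p = 2.16e-04). At 24 h the difference was 0.18, with an interval of -0.02 to 0.37, and the effects at the 2 times differed by -0.94 ± 0.13 (adjusted p = 6.54e-05). The direct difference between the siRNAs was small (-0.27 ± 0.09, adjusted p = 0.0168). It was not called without the first siGGCAGU library (-0.23, adjusted p = 0.0641) or without the first or second siGGGGGC library at 48 h (-0.25 and -0.30, adjusted p = 0.112 and 0.0602), nor by DESeq2 (adjusted p = 0.0524).

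JUN (chr1:58776845-58784048, minus strand) encodes the main partner of the FOS proteins. It had 1704 and 1679.8 normalised counts under siNT1 and 2189.9 and 2255 under siGGGGGC at 24 h. At 48 h it had 3123 and 2635 under siNT1, 2583 and 2626 under siGGCAGU, and 2282 and 2536 under siGGGGGC. The siGGGGGC libraries were above siNT1 at 24 h and below it at 48 h without overlap, and the siNT1 libraries at 48 h lay farther from each other than the nearer of them from siGGCAGU. It rose by 0.39 ± 0.10 on the log2 scale at 24 h (adjusted p = 0.00969) and fell by 0.26 at 48 h (SE 0.09, adjusted p = 0.0301), and these effects differed by -0.65 ± 0.13 (adjusted p = 0.00210). Both calls were fragile. The one at 24 h was lost with no scaling factor (0.30, adjusted p = 0.182), without the first or second siNT1 library (0.41 and 0.40, adjusted p = 0.0772 and 0.0755) and without the second siGGGGGC library (0.38, adjusted p = 0.0790). The one at 48 h was lost without the first siNT1 library (-0.14, adjusted p = 0.258), without the first siGGGGGC library (-0.19, adjusted p = 0.232) and with DESeq2 (-0.25, adjusted p = 0.0524). Under siGGCAGU the difference was -0.14 with an interval of -0.34 to 0.06, and it passed only without the second siNT1 library (-0.27, adjusted p = 0.0352).

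JUNB (chr19:12791486-12793315, plus strand) encodes a JUN protein known for opposing JUN at many promoters. It had 39.4 and 35.4 normalised counts under siNT1 and 82.3 and 80.1 under siGGGGGC at 24 h. By 48 h it stood at 101 and 91.7 under siNT1, 239 and 277 under siGGCAGU, and 532 and 506 under siGGGGGC. The siGGGGGC libraries were the highest and the siNT1 libraries the lowest at each time, with no overlap. JUNB rose by 1.11 ± 0.20 on the log2 scale at 24 h (adjusted p = 0.00129) and by 2.43 ± 0.13 at 48 h (adjusted p = 7.40e-10), and these effects differed by 1.32 ± 0.25 (adjusted p = 9.82e-04). Under siGGCAGU it rose by 1.43 ± 0.13 (adjusted p = 2.23e-07), and the direct difference between the siRNAs was 1.00 ± 0.12 (adjusted p = 3.81e-06). JUNB shares 259 exon bases with HOOK2 on the other strand, and the strand setting of the counting is not given in the sources used here, so reads from that stretch cannot be told apart.

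JUND (chr19:18279694-18281622, minus strand) encodes the JUN protein that resting cells usually keep. It had 76.4 and 73.3 normalised counts under siNT1 and 15.9 and 24.3 under siGGGGGC at 24 h. The levels at 48 h were 130 and 205 under siNT1, 116 and 155 under siGGCAGU, and 114 and 95.3 under siGGGGGC. JUND was the one member below siNT1 in both siGGGGGC libraries at 24 h, whereas at 48 h the siNT1 libraries themselves differed widely. It fell by 1.89 on the log2 scale at 24 h, or 3.71-fold (SE 0.35, adjusted p = 0.00156), and by 0.69 at 48 h (SE 0.21, adjusted p = 0.0125). The 48 h call was lost without the second siNT1 library (-0.32, adjusted p = 0.222) and without the second siGGGGGC library (-0.57, adjusted p = 0.113). The difference between the times was 1.20 ± 0.42 (adjusted p = 0.0455). It was lost with no scaling factor (1.15, adjusted p = 0.0789) and without RN7SL2 and SNORD3A (1.17, adjusted p = 0.0555). It was also lost on leaving out any 1 of the siNT1 or siGGGGGC libraries but the second siNT1 library at 48 h, with values of 0.90 to 1.52. Under siGGCAGU the difference was -0.29 with an interval of -0.73 to 0.14, and it passed only without the first siNT1 library (-0.57, adjusted p = 0.0184).

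EGR1 (chr5:138465479-138469303, plus strand) was near the limit of detection outside 1 group. Its raw counts were 4 and 2 under siNT1 and 7 and 6 under siGGGGGC at 24 h. At 48 h they were 2 and 7 under siNT1, 5 and 9 under siGGCAGU, and 215 and 215 under siGGGGGC. Every other group lay under 10 counts per library, so the siGGGGGC libraries at 48 h stood alone. After scaling, the ratio to siNT1 at 48 h was 78.0, with a 95% interval of 40.7 to 172 for counting error only, and the ratio to siGGCAGU was 34.8 (20.5 to 64.2). The fitted log2 fold change against siNT1 was 6.23 ± 0.28, and 7.09 without the second siNT1 library at 48 h. It is given without a p, since EGR1 entered the test through the siGGGGGC libraries at 48 h alone. The ratios at 24 h under siGGGGGC, 2.49 (0.88 to 8.00), and at 48 h under siGGCAGU, 2.24 (0.90 to 5.87), were not distinguishable from 1 at this depth. For the same reason the fitted difference of the siGGGGGC effect between the times, 4.94 ± 0.88 on the log2 scale, is a description, and it was 5.8002 without the second siNT1 library at 48 h.

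DUSP1 (chr5:172768096-172771195, minus strand) was abundant throughout. It had 1227 and 1156 normalised counts under siNT1 and 1759.7 and 1740.2 under siGGGGGC at 24 h. The libraries of 48 h had 1428 and 1314 under siNT1, 1639 and 1785 under siGGCAGU, and 1687 and 1854 under siGGGGGC. The siRNA groups lay above siNT1 at each time by less than 2-fold, and the 2 targeting siRNAs overlapped at 48 h. DUSP1 rose by 0.55 ± 0.09 on the log2 scale at 24 h (adjusted p = 6.09e-04). At 48 h it rose by 0.37 ± 0.09 under siGGGGGC (adjusted p = 0.00239) and by 0.32 ± 0.09 under siGGCAGU (adjusted p = 0.00634), with a direct difference of 0.05 and an interval of -0.14 to 0.24. Both 48 h calls were lost with no scaling factor (0.21 and 0.16, adjusted p = 0.221 and 0.344) and with no filter on low counts (0.25 and 0.24, adjusted p = 0.0794 and 0.0944). The siGGCAGU call was also lost without the second siNT1 library (0.26, adjusted p = 0.0573) and in a fit of its 4 libraries alone (0.27, adjusted p = 0.101), and the siGGGGGC call without the second siGGGGGC library (0.30, adjusted p = 0.05002).

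IER3 (chr6:30743199-30744548, minus strand) rose in all 3 comparisons with siNT1. It had 123 and 160 normalised counts under siNT1 and 333 and 322 under siGGGGGC at 24 h. At 48 h it had 208 and 158 under siNT1, 1019 and 909 under siGGCAGU, and 1401 and 1499 under siGGGGGC. At each time the groups did not overlap. The log2 fold changes were 1.22 ± 0.16 under siGGGGGC at 24 h (adjusted p = 8.23e-05), 3.00 ± 0.13 at 48 h (adjusted p = 1.38e-10) and 2.41 ± 0.13 under siGGCAGU (adjusted p = 1.03e-09). The siGGGGGC effect grew between the times by 1.78 ± 0.21 (adjusted p = 1.81e-05), and siGGGGGC exceeded siGGCAGU by 0.59 ± 0.12 (adjusted p = 6.21e-04). IER3 shares 440 exon bases with IER3-AS1 and 85 with HCG20 on the other strand, and reads there cannot be told apart.

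**Figure D2:**
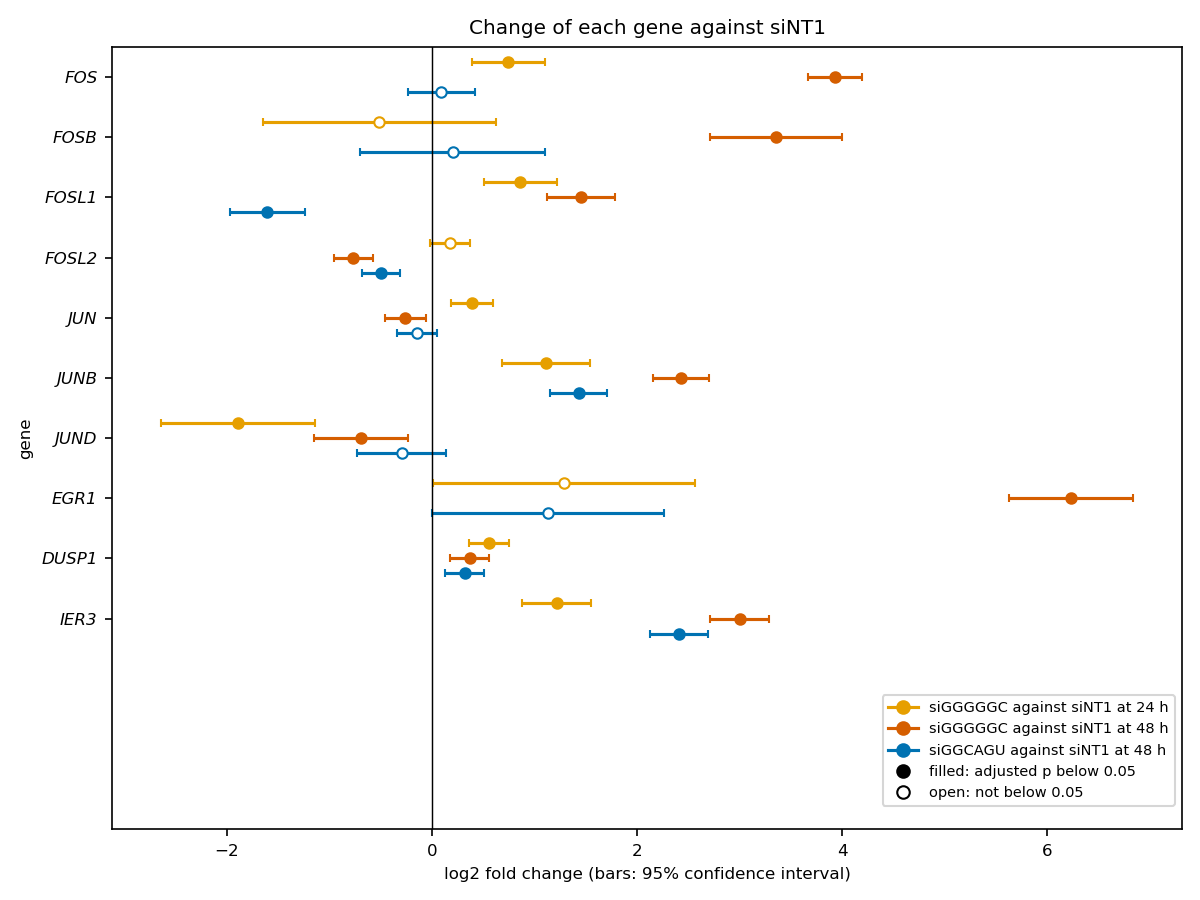
Log2 fold change of each gene against siNT1 with its 95% confidence interval (bars), for siGGGGGC at 24 h, siGGGGGC at 48 h and siGGCAGU at 48 h; filled points have an adjusted p below 0.05. EGR1 (6.23, tested only because it was high there), FOS (3.93) and FOSB (3.35) lie far to the right for siGGGGGC at 48 h alone, FOSL1 lies on opposite sides for the 2 siRNAs at 48 h (1.46 and -1.60), and IER3 and JUNB lie to the right in all 3 comparisons.

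Compared directly at 48 h, siGGGGGC exceeded siGGCAGU at 5 of the 9 members other than EGR1 (FOS, FOSB, FOSL1, JUNB and IER3) and was lower at FOSL2, with 54.3% of all genes passing (26.7% higher and 27.6% lower). The median difference of these 9 was 0.59 on the log2 scale, against -0.01 for all genes, and it was 0.80 with EGR1. For JUN and JUND the differences did not pass, with intervals of -0.31 to 0.09 and -0.88 to 0.08. The effects of siGGGGGC at 48 h and 24 h differed at 7 of these 9 members, 5 upwards and 2 downwards, with 28.6% of all genes passing that test (13.4% upwards and 15.2% downwards).

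In the siNT1 cells alone, 5 members were higher at 48 h than at 24 h and the other 5 did not pass, with 16.6% of all genes passing (9.37% higher and 7.2% lower). JUNB rose by 1.36 ± 0.18 on the log2 scale, JUND by 1.17 ± 0.23, JUN by 0.77 ± 0.10, FOSL2 by 0.66 ± 0.09 and FOSL1 by 0.52 ± 0.16 (edgeR adjusted p = 4.23e-04, 0.00453, 2.53e-04, 4.74e-04 and 0.0413). The count was 3 without either siNT1 library at 24 h, with FOSL1 (adjusted p = 0.166 and 0.190) and JUND (adjusted p = 0.0515 and 0.0601) lost. FOSL1 was also lost without the first siNT1 library at 48 h (0.21, adjusted p = 0.427) or either siGGGGGC library at 48 h (adjusted p = 0.0584 and 0.0579), and IER3 passed without the second siNT1 library at 48 h (0.57, adjusted p = 0.0216). The time of culture and the change of medium cannot be told apart here.

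Levels of different genes were compared as normalised counts per kilobase of annotated exon. In siNT1 cells at 48 h the order was JUN with 794 ± 95.3 per kilobase (SD, n = 2), DUSP1 with 681 ± 40.1, FOSL1 with 382 ± 109 and FOSL2 with 294 ± 21.2, then IER3 with 135 ± 26.2, JUND with 86.7 ± 27.3, JUNB with 52.8 ± 3.79, FOS with 18.2 ± 0.051, FOSB with 2.10 ± 0.19 and EGR1 with 0.89 ± 0.55. Among neighbours in that order, FOSL1 and FOSL2 overlapped between libraries and the others did not. In siGGGGGC cells at 48 h the leading genes were IER3 with 1074 ± 51.8 and FOSL1 with 1045 ± 87.0, which overlapped, then DUSP1 with 879 ± 58.6 and JUN with 665 ± 49.5. FOS, with 277 ± 5.07, there overlapped with JUNB, with 284 ± 9.92. In siGGCAGU cells IER3 stood at 714 ± 57.5 beside JUN at 719 ± 8.34, and FOSL1, at 126 ± 9.92, lay below FOSL2 at 209 ± 10.4 and overlapped with JUNB at 141 ± 14.4. With lengths taken from the longest transcript, FOS in siNT1 cells at 48 h stood at 27.6 and FOSB at 3.08, and FOSL1 ranked above IER3 and FOS above JUNB in siGGGGGC cells at 48 h.

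The make-up of the FOS and JUN families at 48 h is given as shares of this level per kilobase, with no test. JUN made up 48.6% and 48.9% of the summed level of the 7 genes in the siNT1 libraries at 48 h, 55.9% and 55.8% under siGGCAGU, and 25.9% and 26.8% under siGGGGGC. FOSL1 made up 25.9% and 20.5% under siNT1, 10.4% and 9.16% under siGGCAGU, and 40.5% and 42.4% under siGGGGGC. FOSL1 was thus the leading member under siGGGGGC at 48 h, where JUN led in the siNT1 and siGGCAGU libraries. The FOS share was 1.03% and 1.22% under siNT1 and 11.3% and 10.8% under siGGGGGC. This share depends on the length used. With the longest transcript, FOS stood at 420 per kilobase under siGGGGGC at 48 h instead of 277, while JUNB stayed at 284. JUNB held 3.13% and 3.37% under siNT1 but 10.3% and 11.6% under siGGCAGU and 11.96% and 10.6% under siGGGGGC. The 4 FOS genes summed to 789 and 604 per kilobase under siNT1, 371 and 343 under siGGCAGU, and 1452 and 1582 under siGGGGGC. The 3 JUN genes summed to 985 and 883, 904 and 956, and 980 and 1026, so the siNT1 libraries overlapped with both other groups in the JUN sum, while in the FOS sum no 2 groups overlapped.

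**Figure D3:**
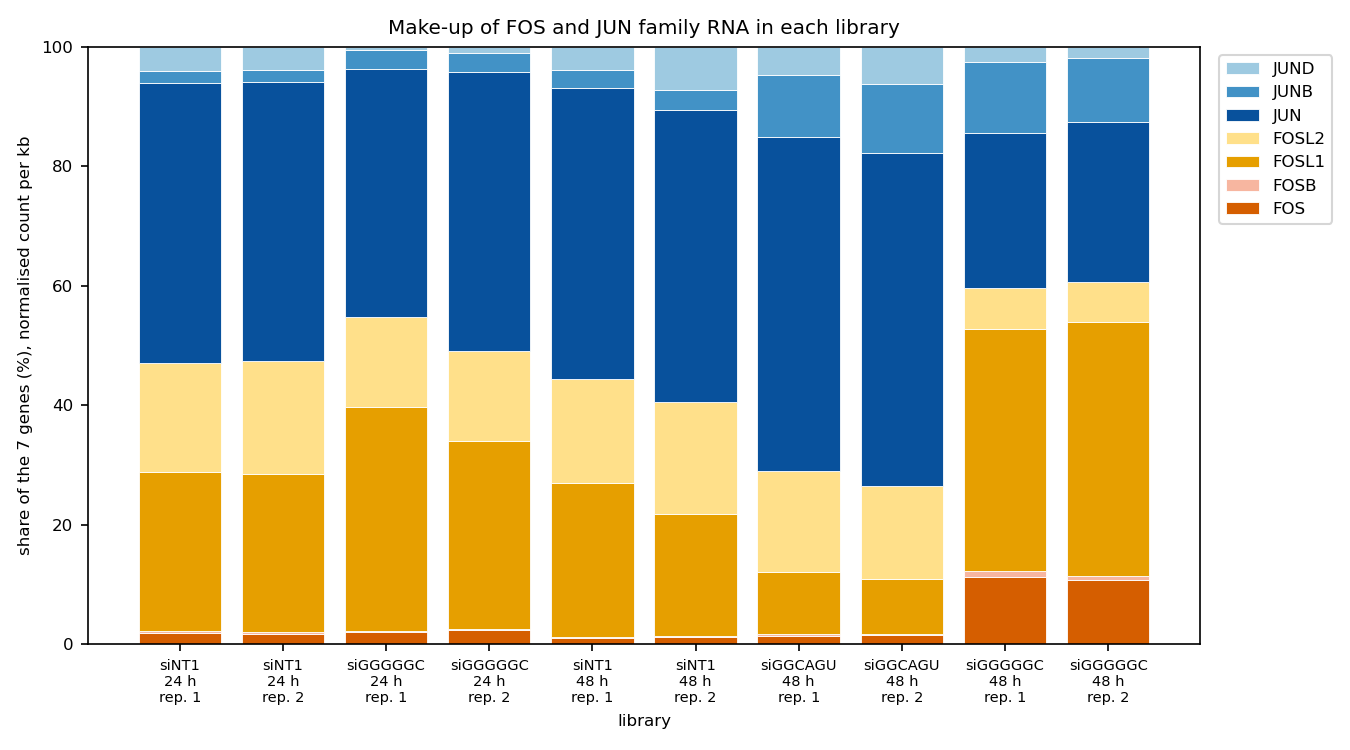
Share (%) of each FOS and JUN family gene in the summed normalised counts per kilobase of the 7 genes, with 1 bar for each library. Lengths are those of annotated exons, and the shares would differ with those of the longest transcript. FOSL1 takes 40.5% and 42.4% of the bars of siGGGGGC at 48 h and 10.4% and 9.16% of those of siGGCAGU, and the FOS segment reaches 11.3% and 10.8% in the siGGGGGC bars at 48 h only.

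A further 7 lists with 105 genes describe the pathway around the members. Each list count is to be read beside the percentages of all genes given above. Which list genes passed the filter on low counts only through the siGGGGGC libraries at 48 h was not checked. Such genes, like EGR1, had to differ there, so list counts and medians that use those libraries are descriptions. The lists, like the members, were chosen with earlier results of these data known. Of the other AP-1 proteins and their dimer partners, 10 of 12 were tested, and 5 rose and 1 fell under siGGGGGC at 48 h, 5 and 1 under siGGCAGU, and 1 and 1 at 24 h. The genes that fell, named after their values were seen, were JDP2 under siGGGGGC at both times (-0.82 and -0.50 on the log2 scale) and BATF3 under siGGCAGU (-1.31), where JDP2 rose by 0.68. Each of these JDP2 calls was lost in at least 1 fit that left out a library (adjusted p up to 0.122 and 0.141 under siGGGGGC at 24 h and 48 h and 0.0693 under siGGCAGU). ATF3, a stress-induced factor that pairs with JUN, rose by 1.07 ± 0.19 on the log2 scale at 24 h, by 3.71 ± 0.14 at 48 h and by 1.32 ± 0.15 under siGGCAGU (edgeR adjusted p = 9.22e-04, 2.43e-11 and 2.58e-06). MAFK, a small MAF protein, rose by 1.31 ± 0.15 under siGGGGGC at 48 h, and its relative MAFF rose by 1.25 ± 0.10 there and by 0.94 ± 0.10 under siGGCAGU.

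Of 22 other immediate early genes, 19 were tested. Under siGGGGGC at 48 h 12 rose and 4 fell, with a median change of 0.44, whereas under siGGCAGU 1 rose and 10 fell, with a median of -0.33. In the direct comparison 14 were higher and 2 lower under siGGGGGC. The filter check made for the members was not made here, so these counts and medians are descriptions. RHOB, a small GTPase, fell by 0.68 on the log2 scale (SE 0.14) under siGGGGGC at 24 h and rose by 1.69 ± 0.11 at 48 h, when BTG2, an antiproliferative p53 target, rose by 0.95 ± 0.14. MYC, the growth-promoting factor, fell by 1.47 on the log2 scale (SE 0.09) and by 1.79 (SE 0.09) under siGGGGGC and siGGCAGU at 48 h. KLF6 fell by 1.34 (SE 0.14) under siGGGGGC and by 0.66 (SE 0.13) under siGGCAGU at 48 h, and KLF4 fell by 1.64 (SE 0.19) under siGGGGGC at 24 h and by 1.82 (SE 0.19) under siGGCAGU. At 24 h 3 rose and 4 fell, among them SGK1, a serum-induced kinase, which fell by 0.77 (SE 0.09), and CCN1, a matrix protein, which rose by 0.52 ± 0.10. SGK1 fell under both siRNAs at 48 h as well, by 1.24 and 0.49, and CCN1 fell by 0.84 (SE 0.10) under siGGCAGU. IER2 rose by 0.65 ± 0.13 at 24 h, but not without the first siNT1 library (0.52, adjusted p = 0.0623), and by 0.73 ± 0.12 under siGGGGGC at 48 h. PLK3 rose by 0.44 ± 0.12 under siGGGGGC and by 0.53 ± 0.12 under siGGCAGU at 48 h, the former lost without the first siNT1 or second siGGGGGC library (adjusted p = 0.0510 and 0.106).

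Among MAP kinase phosphatases and other inhibitors and targets of ERK, 13 of 15 were tested, and 8 rose and 2 fell under siGGGGGC at 48 h, 6 and 2 under siGGCAGU, and 4 and 1 at 24 h. DUSP6, the ERK phosphatase of the cytoplasm, rose by 0.90 ± 0.10 on the log2 scale at 24 h, 2.04 ± 0.09 at 48 h and 1.43 ± 0.09 under siGGCAGU. DUSP4, a nuclear phosphatase, rose by 1.84 ± 0.19, 2.71 ± 0.15 and 2.27 ± 0.15 in the same comparisons. DUSP7 fell by 1.11 (SE 0.12) and 2.00 (SE 0.13) under siGGGGGC and siGGCAGU at 48 h, and ETV4, an ETS factor downstream of ERK, fell by 1.23 (SE 0.16) and 1.27 (SE 0.14) under siGGGGGC at 24 h and 48 h. Of the kinases and RAS proteins, 23 of 24 were tested, with 11 up and 5 down under siGGGGGC at 48 h, 5 and 8 under siGGCAGU, and 5 and 1 at 24 h. MAP2K2, which phosphorylates ERK, rose by 0.75 ± 0.13 and 1.39 ± 0.12 under siGGGGGC at 24 h and 48 h. Its relative MAP2K1 rose by 0.83 ± 0.09 under siGGGGGC and fell by 1.29 (SE 0.10) under siGGCAGU at 48 h. MAP3K1, a kinase upstream of JNK, rose by 0.75 ± 0.13 and 1.31 ± 0.12 under siGGGGGC at the 2 times. MAPK11, a p38 kinase, fell by 1.55 (SE 0.18) under siGGGGGC at 48 h and rose by 0.99 ± 0.15 under siGGCAGU, where MAPK14 rose by 0.67 ± 0.08 and ARAF fell by 0.98 (SE 0.16). MAPKAPK2 fell by 0.52 (SE 0.09) and 0.78 (SE 0.10) under siGGGGGC and siGGCAGU at 48 h, and by 0.40 (SE 0.10) under siGGGGGC at 24 h, a call lost without any 1 of the siNT1 and siGGGGGC libraries of that time (adjusted p from 0.0670 to 0.120).

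Of the 7 factors that act at serum response and cAMP elements, 2 fell under siGGGGGC at each time and 3 under siGGCAGU, and the rest did not pass. ELK3, an ETS partner of serum response factor, fell by 0.58 (SE 0.13), 0.81 (SE 0.13) and 1.38 (SE 0.13) on the log2 scale under siGGGGGC at 24 h, siGGGGGC at 48 h and siGGCAGU, the first lost without the first siNT1 library (adjusted p = 0.0576) or the second siGGGGGC library (adjusted p = 0.0516). ELK1 fell by 0.62 (SE 0.15) under siGGGGGC and by 0.61 (SE 0.15) under siGGCAGU at 48 h. Of the EGF family ligands and receptors, 10 of 11 were tested, with 5 up and 2 down under siGGGGGC at 48 h, 5 and 1 under siGGCAGU, and 1 and 3 at 24 h. HBEGF, a ligand of the EGF receptor, rose by 1.81 ± 0.10 and 1.05 ± 0.10 under siGGGGGC and siGGCAGU at 48 h, TGFA, another ligand, rose by 0.83 ± 0.13 under siGGCAGU, and the receptors ERBB2 and EGFR fell by 1.60 (SE 0.14) and 0.79 (SE 0.16) under siGGGGGC. Several small changes were lost on leaving out single libraries. At 24 h these were the rise of HBEGF (0.41, adjusted p up to 0.170) and the falls of TGFA (-0.46, up to 0.447), ERBB2 (-0.44, up to 0.247) and the cAMP element factor CREB1 (-0.26, up to 0.272), and under siGGCAGU the fall of ERBB2 (-0.33, up to 0.308).

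Genes that textbooks list as AP-1 targets split in both directions. Of 14, 12 were tested, and 6 rose and 5 fell under siGGGGGC at 48 h, 4 and 6 under siGGCAGU, and 4 and 2 at 24 h. CXCL8, a neutrophil-attracting chemokine, fell by 0.63 on the log2 scale under siGGGGGC at 24 h (SE 0.14) and rose by 3.77 ± 0.15 and 4.53 ± 0.15 under siGGGGGC and siGGCAGU at 48 h. The 24 h fall of CXCL8 was lost without the first siGGGGGC library (-0.60, adjusted p = 0.0525). TGFB1 rose by 0.89 ± 0.23 at 24 h, a call lost without the first siNT1 library (0.78, adjusted p = 0.127) or either siGGGGGC library (0.86 and 0.94, adjusted p = 0.0766 and 0.0548), and by 0.96 ± 0.19 under siGGGGGC at 48 h. VEGFA, an angiogenic factor, rose by 2.47 ± 0.12 and 0.66 ± 0.12 under the 2 siRNAs at 48 h. PLAU, the urokinase gene, rose by 0.65 ± 0.11 under siGGGGGC at 24 h and fell by 0.97 (SE 0.11) and 1.86 (SE 0.11) under siGGGGGC and siGGCAGU at 48 h. CCND1, the gene of cyclin D1, fell by 2.08 (SE 0.10) under siGGCAGU.

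**Figure D4:**
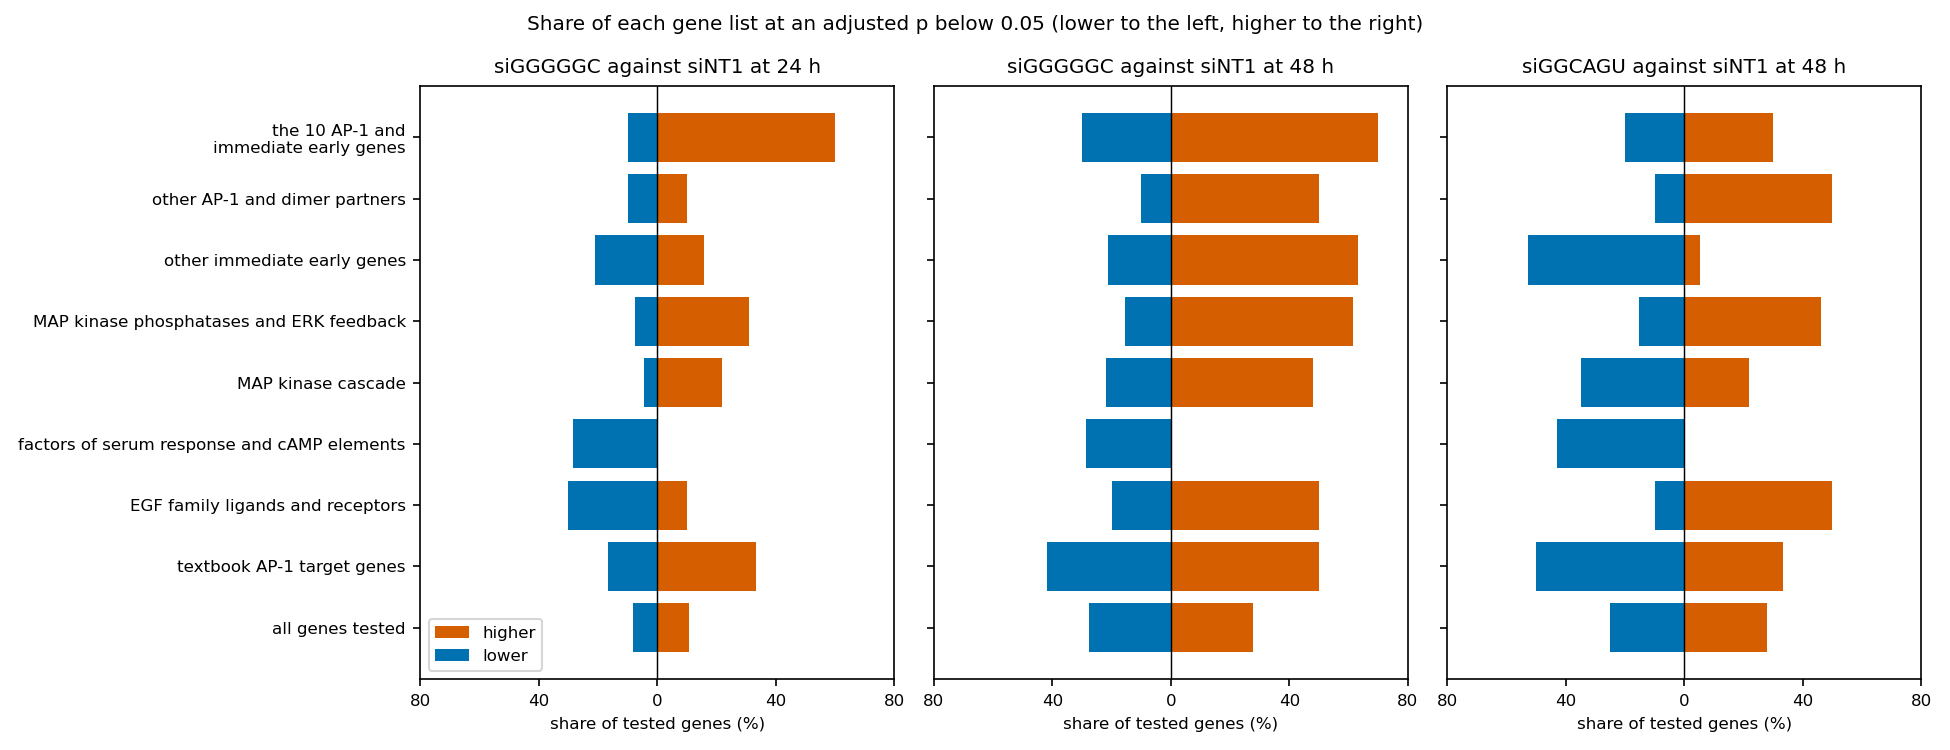
Share (%) of the tested genes of each list that were higher (right) or lower (left) at an adjusted p below 0.05, with all 16905 genes tested at the bottom, in 3 comparisons with siNT1. The other immediate early genes extend to the right under siGGGGGC at 48 h (12 of 19 higher) and to the left under siGGCAGU (10 of 19 lower). The top bars count EGR1, which passed the filter on low counts only through siGGGGGC at 48 h. Without EGR1, 6 of 9 members rose and 3 fell there. List genes were not checked for this.

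For FOSL1, JUN and EGR1 the genes with the most similar profile were sought among 9895 genes outside the lists with a mean of at least 100 normalised counts. Likeness was the root mean square difference of centred log2 values over the 10 libraries, which share groups, so it is a description. For FOSL1 the nearest were AK4P1 at 0.24, H2AX at 0.25 and PLAAT3 at 0.30, where the median gene stood at 1.05. For EGR1 they were OSGIN1 at 0.65, ENSG00000273199 at 0.70 and SQSTM1 at 1.03, against a median of 2.10. EGR1 passed the filter on low counts only through the siGGGGGC libraries at 48 h, and those libraries set most of its profile. Its own standard deviation over the libraries was 2.19, close to that median, so nearness to EGR1 mostly reflects a high level in that group. For JUN they were AGO1 at 0.083, SLC23A2 at 0.095 and ELMO2 at 0.098, against a median of 0.42. AK4P1 is listed by name as a pseudogene copy of AK4, so its counts may include reads of that gene.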

How the data were processed

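Total RNA from HeyA8 wells was treated with DNase, depleted of ribosomal RNA and sequenced as paired ends. The authors trimmed and aligned the reads to hg38 and deposited raw counts per Ensembl gene for each library. The processing notes name TopHat, Bowtie2, HTSeq and DESeq2; which aligner and strand setting made these counts is not given in the sources used here. The authors' tables of fold changes and p-values were not used. Libraries were grouped by their labels. Raw counts, 19781445 to 42428986 per library, were filtered with filterByExpr, scaled by TMM and fitted in 1 edgeR (4.0.16) quasi-likelihood model of all 10 libraries with 5 groups and 5 residual degrees of freedom, in R 4.3.3, with Benjamini-Hochberg adjustment over 16905 genes. Counting intervals are 95% exact binomial intervals and cover counting error only. Replicates differed by more than sampling noise, so no library was counted as deposited more than 1 time. The fit was also run on simulated data with 200 genes changed in 1 group, far fewer than passed in these comparisons. That run therefore says little on scaling or error rates here. Gene positions, lengths and UTRs are from GENCODE 44, which held 98.9% of the gene IDs; the authors' annotation was an earlier release. Promoters are from RefSeq. All members were named, and from each list the 2 largest rises and 2 largest falls that passed in each comparison with siNT1 among genes with a mean of at least 100 normalised counts; some genes this rule names are not reported here. The members and lists were chosen with earlier results of these data known. Alternatives were RLE or no scaling, leaving out RN7SL2 and SNORD3A, other filters, DESeq2 (1.42.0), a replicate block, the libraries of a comparison alone and leaving out each library.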

Additional observations from a re-analysis of the deposited data

Results flagged for a closer look

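The effect of siGGGGGC against siNT1 differed between 48 h and 24 h at 7 of the 9 genes other than EGR1 by the interaction test of the edgeR model. The effect was larger at 48 h by 3.86 on the log2 scale for FOSB (3.21 to 5.04 over the alternatives), 3.18 for FOS, 1.78 for IER3 and 1.32 for JUNB. For FOSL2 (-0.94) and JUN (-0.65) the effect moved from above to below siNT1, although FOSL2 did not pass at 24 h. Both JUN calls against siNT1 were fragile. From 24 h to 48 h the mean normalised count of JUN went from 1692 to 2879 under siNT1 and from 2222 to 2409 under siGGGGGC. That of FOSL2 went from 1335 to 2106 under siNT1 and from 1508 to 1238 under siGGGGGC. The change of sign thus came with a rise in the control cells. For JUND the difference of 1.20 is that of a smaller fall at 48 h than at 24 h. It was lost in most fits that left out 1 library, with no scaling factor and without RN7SL2 and SNORD3A. The difference for EGR1 was 4.94 (4.44 to 5.8002 over the alternatives) and is a description, since EGR1 passed the filter only through the siGGGGGC libraries at 48 h and had fewer than 10 counts in every other library. Medium change, culture time and time after transfection cannot be told apart in this contrast.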

How the results depend on the processing

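Over 18 alternatives in 6 comparisons, the member values kept direction and side of the threshold in 1003 cases, were lost from the calls in 39, entered them in 13 and changed sign in 10, all of the last among changes that did not pass. With no scaling factor FOS gave -0.048 under siGGCAGU and 0.22 for siNT1 over time, and the latter was 0.068 with no filter. Leaving out 1 library gave values of -1.70 to 0.14 for FOSB at 24 h (the highest without the first siGGGGGC library), -0.57 to 0.080 for JUND under siGGCAGU (the highest without the second siNT1 library), -0.019 to 0.11 for DUSP1 between the siRNAs (-0.015 without the first siGGCAGU library and -0.019 without the second siGGGGGC library) and, for siNT1 over time, -0.084 to 0.077 for FOS (the highest without the first library at 24 h) and -1.20 to 0.17 for EGR1 (0.17 without that library and 0.11 without the first at 48 h). FOSL2 was the 1 member lower under siGGGGGC than under siGGCAGU, and this count was 0 with no scaling factor and with DESeq2, and 0 to 1 on leaving out 1 library. The 5 members higher over time in siNT1 cells became 7 with no scaling factor, where DUSP1 (0.44) and IER3 (0.61) entered, and 3 to 6 on leaving out 1 library. The number of genes past the 2-fold threshold fell with a mean count of at least 50, a filter that tests fewer genes, from 629 to 393 and from 3636 to 2061 for siGGGGGC at 24 h and 48 h, from 3430 to 2013 for siGGCAGU, from 3881 to 2288 between the siRNAs and from 258 to 147 for siNT1 over time. The last was 473 with no scaling factor, 414 with no filter, 148 with DESeq2 and 111 to 416 on leaving out 1 library; the cause was not tested. With no scaling factor the median of all genes moved to -0.17 under siGGGGGC and -0.13 under siGGCAGU at 48 h and to 0.23 for siNT1 over time, and changes are to be read relative to these. The time difference of FOSL1 also passed with no filter (0.46) and with the libraries of the comparison alone (0.60). Of the list genes named, 1075 values were kept and 59 lost.

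No pairing by the replicate numbers of the titles was seen: deviations of libraries with the same number correlated at -0.09 to 0.03 over 16905 genes. Scarce genes add counting noise to these deviations, so a weak pairing could be missed. With the number as a replicate block, the calls of the members changed only for the time difference of FOSL1 (0.62, adjusted p = 0.0394).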
